A study of Mus musculus with 12 samples.

Results

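The cell cycle genes described here are 36 named genes, out of 54115 genes in the tables, that load the replicative helicase, copy DNA, drive or brake the passage from G1 into S phase, or carry cells through mitosis. They were taken from a list of symbols and not from their measured values. The list holds 8 licensing genes (Mcm2 to Mcm7, Cdc6 and Cdt1), 6 DNA synthesis genes (Pcna, Gins2, Rrm1, Rrm2, Tyms and Tk1), 9 G1 and S phase genes (Cdk2, Cdk4, Cdk6, the D cyclins Ccnd1, Ccnd2 and Ccnd3, the E cyclins Ccne1 and Ccne2, and E2f1), 2 inhibitors of cyclin-dependent kinases (Cdkn1a and Cdkn1b) and 11 mitotic genes (Mki67, Top2a, Cdk1, Ccna2, Ccnb1, Ccnb2, Birc5, Aurka, Aurkb, Bub1 and Plk1). They were followed in the total RNA of eosinophils sorted from the blood, the gonadal fat and the subcutaneous fat of 5 wild-type FVB/NJ mice. All 5 animals were males aged 20 weeks, kept on chow without any treatment, so the 3 groups share strain, sex, age and diet and differ in the tissue. Each group has 4 libraries, each from another animal: blood from mice 2807, 2771, 2683 and 2668, gonadal fat from mice 2846, 2807, 2683 and 2668, and subcutaneous fat from mice 2846, 2807, 2771 and 2668. Fat was digested with collagenase II at 1 mg/mL and 37 C for 45 min and blood was not, so the digestion and the tissue cannot be told apart. Live cells positive for CD45, CD11b and Siglec-F were sorted, a gate that other myeloid cells with these surface proteins can enter.

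Eosinophils are granulocytes that arise in the bone marrow, enter the blood as mature cells and are regarded as no longer dividing. In dividing cells, Cdc6 and Cdt1 load the hexamer of MCM proteins onto replication origins during G1, and GINS proteins help to turn that hexamer into the active helicase. D cyclins with Cdk4 or Cdk6, and later E and A cyclins with Cdk2, inactivate the retinoblastoma proteins and so release E2F factors, which switch on genes of DNA replication. Cdkn1a (p21) and Cdkn1b (p27) bind and inhibit these kinases, and Cdkn1a is a well-known target of p53. The mitotic genes follow later in the cycle, and many of them carry a cell cycle genes homology region, or CHR, in their promoters.

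The libraries held 12477671 to 23734940 estimated reads, except subcutaneous mouse 2846, which held 4379954 and in which mitochondrial ribosomal RNA took 28.1% of reads against 4.66% to 8.79% elsewhere. A count of 3 was worth 0.898 CPM (reads scaled to library size) in that library and 0.118 to 0.238 CPM in the others. The eosinophil surface genes were present in all 12 libraries, with Siglecf at 148.8 to 523.7 CPM, Il5ra at 48.6 to 170.5 CPM and Ccr3 at 376 to 1649 CPM. Of 12 tested eosinophil markers, however, 5 were lower and 1 higher in each depot than in blood (median log2 -0.77 in gonadal and -0.84 in subcutaneous fat). Their summed level was 9087 to 10350 CPM in blood, 3706 to 8313 CPM in gonadal fat and 3414 to 8068 CPM in subcutaneous fat. Much of that sum came from Ptprc (CD45) and Itgam (CD11b), which other myeloid cells of the gate also carry. Ptprc averaged 3968 CPM in blood, 2120 CPM in gonadal and 2202 CPM in subcutaneous fat, and Itgam 1905, 986 and 920 CPM. Ccr3, the eotaxin receptor, stood at 1359 to 1649 CPM in all blood libraries and at most at 1160 CPM in fat. The part of this in the results below was not tested. The granule protein genes Epx and Prg2 lay at 0 to 7.69 and 0 to 4.76 CPM. Blood mouse 2807 had the highest summed macrophage markers of the blood libraries. It and subcutaneous mouse 2846 were left out together in a setting chosen after the data were seen. A p-value here measures the spread between mice of 1 strain and sex.

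Some promoters of the members carry sequence features by which licensing and mitotic genes are known, and windows that hold them are shown here. Only the letters named below were searched, so other forms of these sites were not counted. A promoter without a match can therefore still hold such a site. RefSeq promoter windows (GRCm38.p6, 250 bases before to 50 bases after a gene's start) were at hand for 27025 genes, among them 29 of the 36 members. A match to an E2F-type motif, TTTCGCGC or TTTGGCGC on either strand, stood in 5 of 7 licensing promoters (71.4%), in 1 of 9 mitotic promoters, and in 0 of 5 synthesis, 0 of 6 G1 and S phase and 0 of 2 inhibitor promoters, against 0.929% of all genes. The 5 licensing genes with a match were Mcm3, Mcm5, Mcm6, Mcm7 and Cdt1, and the mitotic one was Cdk1. In the following 30-base windows, read 5′ to 3′ on the strand of the gene, capitals mark the motif.
Mcm3: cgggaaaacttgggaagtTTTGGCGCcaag
Mcm5: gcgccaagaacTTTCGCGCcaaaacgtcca
Mcm6: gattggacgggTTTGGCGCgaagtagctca
Mcm7: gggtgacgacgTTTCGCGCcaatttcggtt
Cdt1: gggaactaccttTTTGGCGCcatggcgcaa
Cdk1: tttccgctcccTTTCGCGCtctgcgctccc
They lie at chr1:20820263-20820292 for Mcm3, chr8:75109345-75109374 for Mcm5, chr1:128359734-128359763 for Mcm6, chr5:138171849-138171878 for Mcm7, chr8:122568035-122568064 for Cdt1 and chr10:69353025-69353054 for Cdk1. Mcm5 and Cdt1 are on the plus strand and the other 4 genes on the minus strand. Counted in bases from the gene's start, with negative positions before it, the motif begins at 38 in Mcm3, -153 in Mcm5, -47 in Mcm6, 16 in Mcm7, 32 in Cdt1 and -131 in Cdk1. In Mcm5 the end of the marked motif, with the bases after it, also matches TTTGGCGC on the opposite strand. That overlapping match is not in capitals, and the position given is that of the marked one.

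A CHR-type motif, TTTGAA on either strand, stood in 6 of 9 mitotic promoters (66.7%) and in 1 of 7 licensing promoters, that of Mcm2, against 20.2% of all genes. The box CCAAT, searched on both strands, stood in 8 of 9 mitotic and 5 of 7 licensing promoters against 41.1% of all genes. The CHR-type windows of the 3 mitotic genes with a difference in the tests below, and of Mcm2, are shown in the same way.
Cdk1: accgcggcgagTTTGAAactgctggcactc
Mki67: tagcgccagaaTTTGAAccgccgttttggt
Top2a: ctagataaaggTTCAAAtgaaactagggaa
Mcm2: gggctcagcctTTTGAAagctgtgggcggg
These windows are chr10:69352909-69352938, chr7:135716477-135716506, chr11:99024194-99024223 and chr6:88898832-88898861, all on the minus strand, and in Top2a the motif reads on the opposite strand. A match describes the letters of the window and says nothing of a factor's binding in these cells.

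Eosinophils from both fat depots differed from blood eosinophils at a minority of these genes, and no difference between the 2 depots passed the test at any of them. With edgeR's quasi-likelihood test and Benjamini-Hochberg adjustment over 15367 genes, 33 of the 36 members had enough reads to be tested, and Ccne1, Ccnb1 and Bub1 did not. In gonadal fat 10 members were higher and 2 lower than in blood at an adjusted p under 0.05, where 15.4% of all tested genes were higher and 11.6% lower (27.0% called in all). In subcutaneous fat 8 were higher and 2 lower, where 15.4% of all tested genes were higher and 11.4% lower (26.8% called in all). In all, 36.4% and 30.3% of tested members were called in the 2 contrasts. By direction, 30.3% of tested members were higher in gonadal and 24.2% in subcutaneous fat, above the 15.4% of all genes, and the lower calls were 2 in each. Libraries of the 2 groups did not overlap for 11 higher and 3 lower members in gonadal fat (18.6% and 17.7% of all tested genes) and for 5 higher and 2 lower ones in subcutaneous fat (13.8% and 15.7%). The median log2 fold change over the tested members was 1.16 in gonadal and 1.03 in subcutaneous fat, beside 0.08 and 0.07 over all tested genes. Both contrasts use the same 4 blood libraries. Mcm2, Mcm3, Rrm1, Cdkn1a and Cdkn1b were called in both of them with each library left out in turn and under each of the 8 other settings tried.

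**Figure D1:**
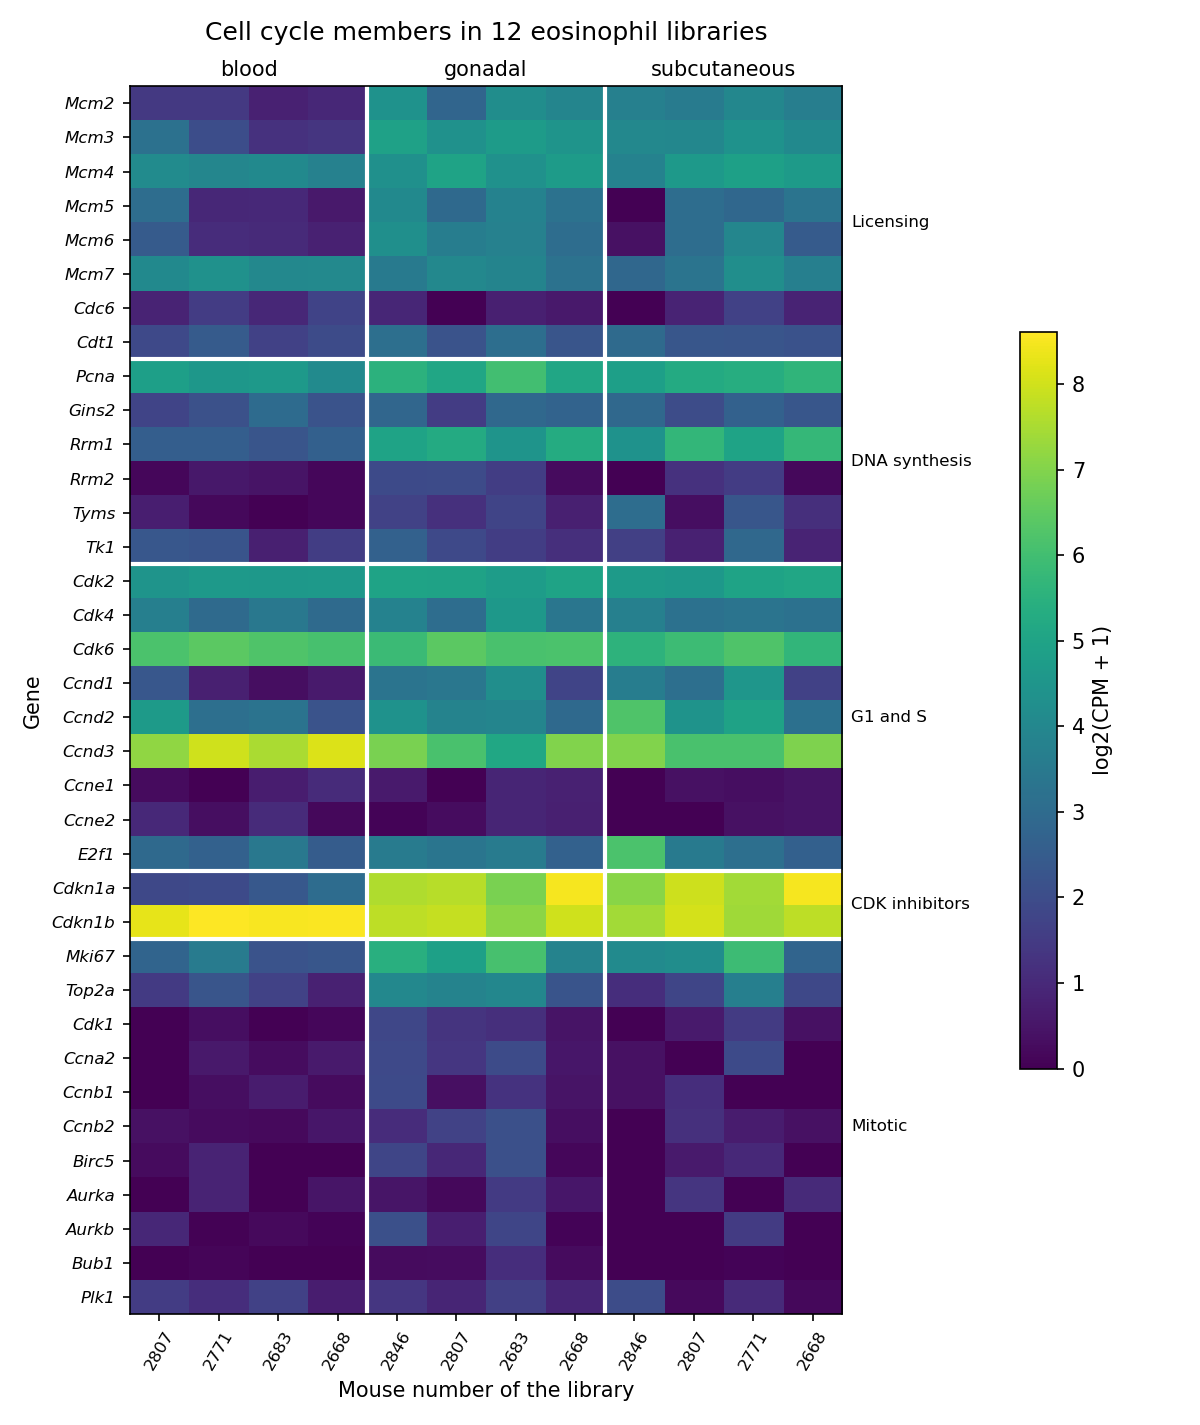
Levels of the 36 members in the 12 libraries, as log2(CPM + 1), with genes in rows by class and libraries in columns by group and mouse number. Mcm2, Mcm3, Rrm1 and Cdkn1a are darker in all 4 blood columns than in the fat columns, Ccnd3 and Cdkn1b are brighter there, and most mitotic rows stay near 0 in every column.

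**Figure D2:**
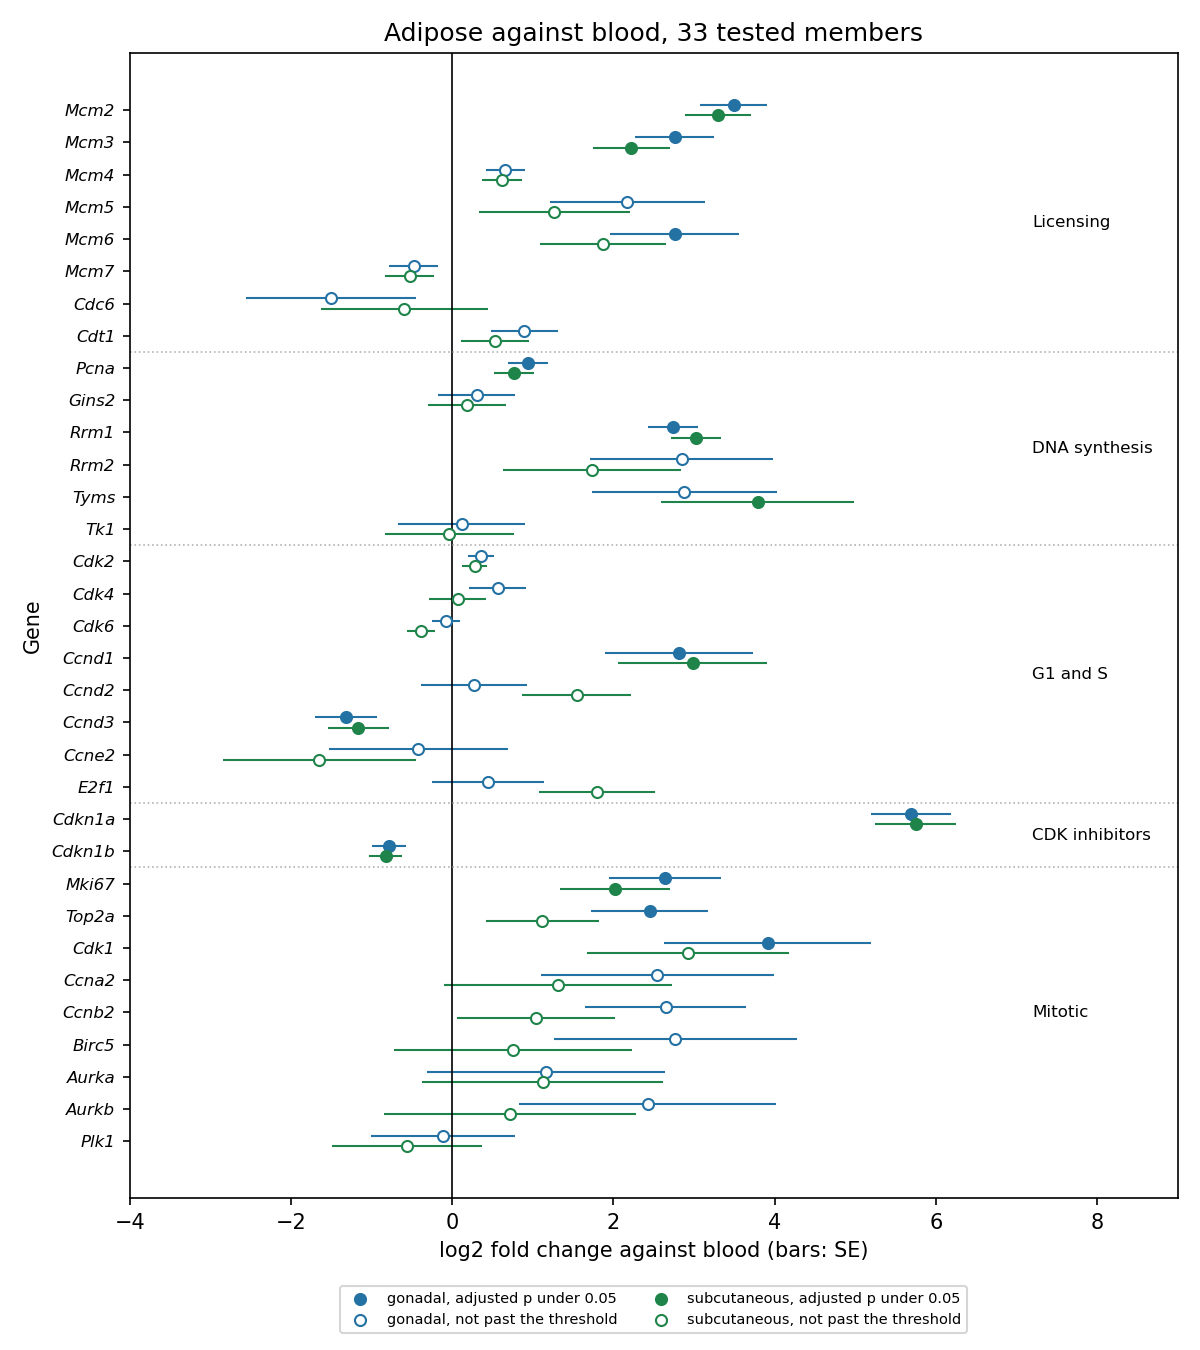
log2 fold changes against blood of the 33 tested members, with bars of 1 SE, blue for gonadal and green for subcutaneous fat, filled where the adjusted p was under 0.05. Cdkn1a lies farthest to the right at 5.70 and 5.75, and Ccnd3 and Cdkn1b are the filled points left of 0.

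Among the licensing genes, which encode the helicase and its loaders, 3 of 8 were higher in gonadal fat (Mcm2, Mcm3 and Mcm6), 2 of 8 in subcutaneous fat (Mcm2 and Mcm3) and none was lower. In what follows, values per library are in CPM on scaled library sizes and run in the order of mice given above for each group. Mcm2, a helicase subunit, stood at 1.72, 1.69, 0.733 and 0.943 CPM in blood, at 19.8, 6.05, 17.5 and 14.1 CPM in gonadal fat and at 12.6, 11.01, 14.7 and 11.9 CPM in subcutaneous fat. No fat library came near the blood range, and the lowest was the gonadal one of mouse 2807. The log2 fold change was 3.49 in gonadal fat (SE 0.414, adjusted p = 0.000108) and 3.30 in subcutaneous fat (SE 0.412, adjusted p = 0.000179). For its partner Mcm3 the blood libraries gave 8.25, 3.05, 1.36 and 1.49 CPM, the gonadal ones 29.7, 19.5, 25.2 and 21.2 CPM and the subcutaneous ones 15.3, 14.97, 19.8 and 15.8 CPM. Blood mouse 2807 was the highest of its group, yet the groups did not overlap. The log2 fold change of Mcm3 was 2.76 (SE 0.489, adjusted p = 0.00175) and 2.22 (SE 0.482, adjusted p = 0.00574), and without blood mouse 2807 it was 3.56 and 3.03.

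Mcm6, another helicase subunit, had 4.51, 1.13, 1.05 and 0.744 CPM in blood, 18.4, 11.5, 12.9 and 7.49 CPM in gonadal fat and 0.299, 7.37, 14.3 and 4.56 CPM in subcutaneous fat. Its gonadal libraries were all above blood, with a log2 fold change of 2.76 (SE 0.802, adjusted p = 0.0237). That call was lost without blood mouse 2771, 2683 or 2668 or gonadal mouse 2846 (adjusted p 0.0601 to 0.0723), and the value was 3.65 without blood mouse 2807 and 3.40 with the mouse as a block (adjusted p = 0.0305). In subcutaneous fat the log2 value was 1.88 (adjusted p = 0.0926), and it passed the threshold without blood mouse 2807 (2.76, adjusted p = 0.0254) or subcutaneous mouse 2846 (2.27, adjusted p = 0.0190), in which 1 read of Mcm6 was counted. Without subcutaneous mouse 2771 it was 1.19 (adjusted p = 0.292). Mcm5 had the same arrangement, with 7.36 CPM in blood mouse 2807 beside 0.496 to 0.995 CPM in the other 3 blood libraries, 6.63 to 15.8 CPM in gonadal fat, and 6.32 to 8.98 CPM in subcutaneous fat beside a count of 0 in mouse 2846, which allows up to 0.898 CPM. It missed the threshold in both contrasts (log2 2.18, adjusted p = 0.110, and 1.26, adjusted p = 0.341). Without blood mouse 2807 it passed in both (3.72, adjusted p = 0.0121, and 2.82, adjusted p = 0.0355), and without subcutaneous mouse 2846 in gonadal fat (2.21, adjusted p = 0.0369). With neither of these 2 libraries in the fit, a setting chosen after the data were seen, Mcm5 was at 3.76 (adjusted p = 0.000214) and 3.23 (adjusted p = 0.000685) and Mcm6 in subcutaneous fat at 3.17 (adjusted p = 0.00144).

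The remaining licensing genes were not called. Mcm4 ranged over 12.8 to 16.7 CPM in blood, 18.9 to 30.6 CPM in gonadal and 13.2 to 28.7 CPM in subcutaneous fat, and its log2 values of 0.66 (adjusted p = 0.0622) and 0.62 (adjusted p = 0.0773) lay just outside the threshold. With the mouse as a block, gonadal Mcm4 passed it (0.83, adjusted p = 0.0314), and without subcutaneous mouse 2846 Mcm4 passed it in both contrasts (0.67, adjusted p = 0.0159, and 0.82, adjusted p = 0.0110). Mcm7 pointed the other way, at 15.3 to 19.4 CPM in blood, 8.41 to 15.3 CPM in gonadal fat and 6.29 to 18.03 CPM in subcutaneous fat (log2 -0.48, adjusted p = 0.268, and -0.53, adjusted p = 0.220). With effective transcript lengths as an offset the gonadal value of Mcm7 was -1.24 (adjusted p = 0.0168). Reads on Mcm7 are uncertain, because Cops6 and Ap4m1 on the opposite strand and 3 microRNA genes on its own strand overlap it. Cdt1 and Cdc6, the helicase loaders, stood at 2.20 to 7.87 and 0 to 2.33 CPM over all 12 libraries. The log2 values of Cdt1 were 0.90 (adjusted p = 0.130) in gonadal and 0.53 (adjusted p = 0.375) in subcutaneous fat. Those of Cdc6, like Mcm7, were negative, at -1.51 (adjusted p = 0.317) and -0.59 (adjusted p = 0.705). With the length offset the subcutaneous value of Cdc6 was 0.97.

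The 6 subunits of the helicase act as one hexamer, and their levels per transcript length, in TPM, a unit that corrects for length, were uneven in blood. Mcm7 alone made up 46.5% to 78.7% of the summed TPM of Mcm2 to Mcm7 in the 4 blood libraries. In gonadal fat that share was 11.4% to 25.7%, and in subcutaneous fat 18.7% to 38.3%. Mcm7 was the highest subunit in every blood library, Mcm2 in 3 of 4 gonadal and 3 of 4 subcutaneous libraries. The lowest subunit in blood was Mcm6, Mcm5, Mcm2 and Mcm5 in turn, at 0.0453 to 0.670 TPM. The level of Mcm7 was 6.58 TPM in blood (range 4.47 to 8.54), 2.94 TPM in gonadal fat (2.47 to 3.38) and 3.35 TPM in subcutaneous fat (2.43 to 4.82). In blood Mcm7 and Mcm4 averaged 16.6 and 14.97 CPM, but 6.58 and 1.79 TPM. A transcript of 660 bases, Mcm7-206, held 24.9% of pooled Mcm7 reads in blood, 8.44% in gonadal and 17.2% in subcutaneous fat. The TPM shares depend on how reads are divided among short and long transcripts. The part of this division, and of the genes that overlap Mcm7, was not tested.

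**Figure D3:**
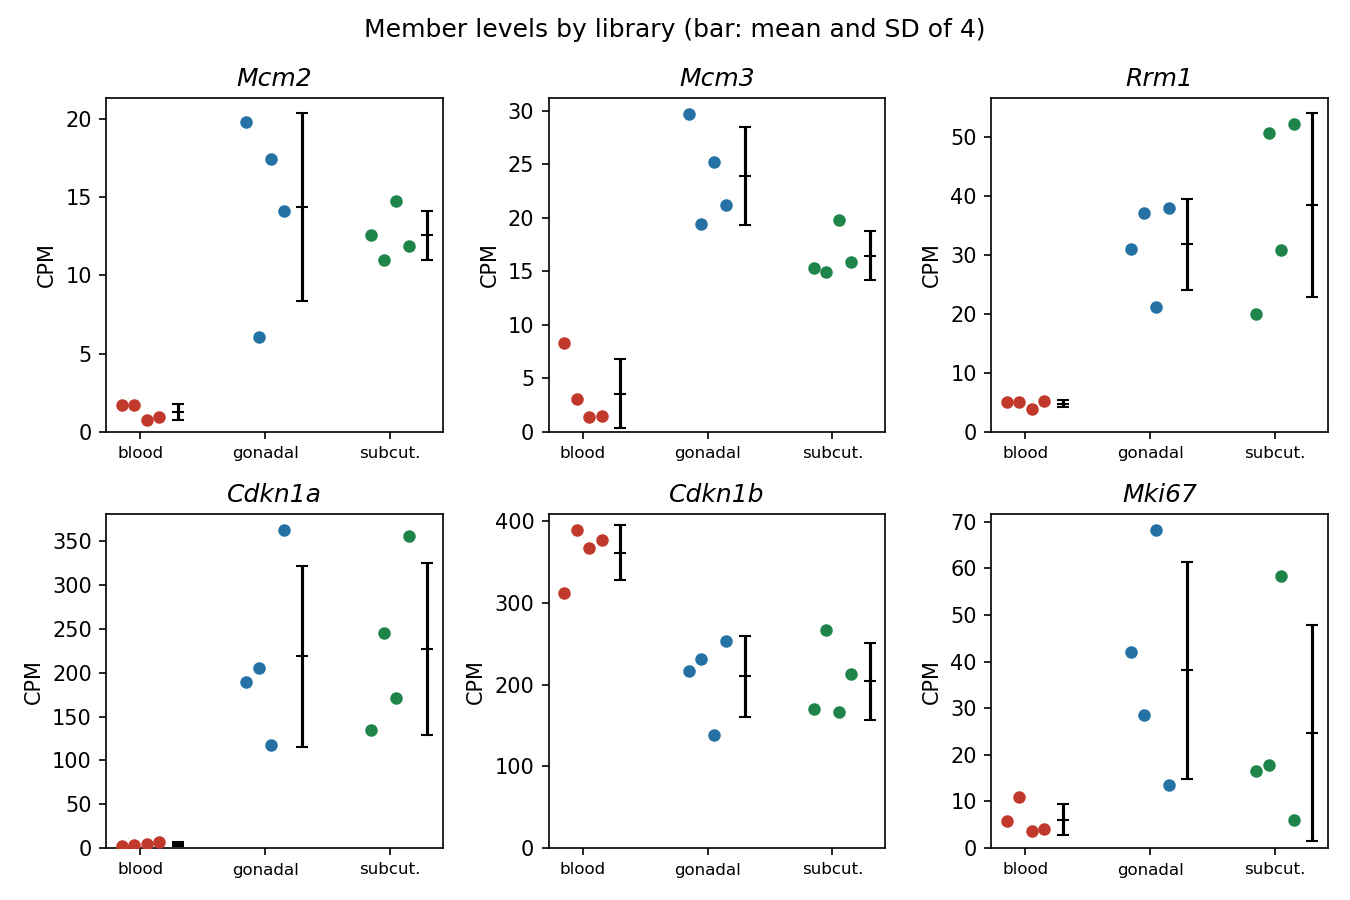
CPM of Mcm2, Mcm3, Rrm1, Cdkn1a, Cdkn1b and Mki67 in each library, 1 point per library, with the mean and SD of the 4 libraries of a group as a bar, on linear axes from 0. Blood points lie apart from all fat points for the first 5 genes, while for Mki67 the lowest subcutaneous point, 5.89 CPM, lies within the blood range of 3.61 to 10.9 CPM.

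Of the DNA synthesis genes, Rrm1 and Pcna were higher in both depots and Tyms in subcutaneous fat, and none of the 6 was lower. Rrm1 encodes the large subunit of ribonucleotide reductase, which makes deoxyribonucleotides for replication and for repair. Its level was 4.99, 4.98, 3.82 and 5.21 CPM in blood, 31.0, 37.1, 21.1 and 38.0 CPM in gonadal fat and 20.1, 50.8, 30.9 and 52.2 CPM in subcutaneous fat. The blood libraries lay within a narrow band far below every fat library, and the log2 fold change was 2.74 (SE 0.308, adjusted p = 7.41e-05) in gonadal and 3.02 (SE 0.312, adjusted p = 4.10e-05) in subcutaneous fat. Rrm2, the small subunit that the active enzyme also needs and that is made mainly in S phase, was counted at 0.0992 to 0.470 CPM in blood, 0.183 to 2.95 CPM in gonadal fat and 0 to 1.92 CPM in subcutaneous fat (log2 2.85, adjusted p = 0.0795, and 1.73, adjusted p = 0.264). Gonadal Rrm2 passed the threshold without subcutaneous mouse 2846 (2.86, adjusted p = 0.0472). The subcutaneous value of Rrm2 was 1.00 without subcutaneous mouse 2771 and 0.48 with effective lengths as an offset. Per length, Rrm1 had 1.45 TPM in blood, 5.73 TPM in gonadal and 7.87 TPM in subcutaneous fat, and Rrm2 0.115, 0.642 and 0.157 TPM. In the 2 fat libraries of mouse 2668, Rrm1 stood at 9.02 and 8.25 TPM and Rrm2 at 0.0341 and 0.0779 TPM.

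Not all reads of Rrm1 fell on its coding transcript. That share was 71.3%, 52.5%, 25.4% and 38.8% in blood, 71.5% to 84.8% in gonadal fat and 64.1% to 76.4% in subcutaneous fat. The blood and gonadal shares did not overlap (exact two-sided permutation test, p = 0.0286, the smallest 4 against 4 libraries can give, 0.257 after adjustment over 36 such tests on 12 genes). Blood and subcutaneous shares overlapped (exact p = 0.0857, adjusted 0.617). When only transcripts annotated as coding were fitted, a setting chosen after the data were seen, Rrm1 was higher by 3.39 and 3.58 on the log2 scale (adjusted p = 0.000197 and 0.000157). With the length offset Rrm1 was higher by 1.94 and 2.42 (adjusted p = 0.00341 and 0.000949).

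Pcna, the sliding clamp of the DNA polymerases, which also serves in repair, stood at 27.8, 22.4, 24.04 and 16.6 CPM in blood, 45.3, 33.1, 62.8 and 33.3 CPM in gonadal fat and 28.2, 37.5, 40.3 and 48.3 CPM in subcutaneous fat. Its fold change was small, log2 0.94 (SE 0.245, adjusted p = 0.0138) and 0.77 (SE 0.245, adjusted p = 0.0350), although all fat libraries lay above blood. Gonadal Pcna missed the threshold without blood mouse 2668 or gonadal mouse 2683 (adjusted p 0.0532 and 0.0504). Subcutaneous Pcna missed it without blood mouse 2771, 2683 or 2668, gonadal mouse 2846, or subcutaneous mouse 2807, 2771 or 2668 (adjusted p 0.0544 to 0.113), and with the length offset (adjusted p = 0.108). Tyms, which makes thymidylate, had 0.653, 0.141, 0 and 0.0992 CPM in blood, 2.24, 1.30, 2.44 and 0.670 CPM in gonadal fat and 7.49, 0.238, 3.90 and 1.25 CPM in subcutaneous fat. Its subcutaneous call (log2 3.79, SE 1.19, adjusted p = 0.0335) rested on 25, 3, 63 and 17 reads. It was lost without blood mouse 2771, 2683 or 2668 or subcutaneous mouse 2846 or 2771 (adjusted p 0.0647 to 0.0892), with the mouse as a block (adjusted p = 0.149), with the length offset (0.213), with only blood and subcutaneous libraries in the fit (0.0591) and on coding transcripts alone (0.714). The fold was log2 5.10 without blood mouse 2807 and 3.04 without subcutaneous mouse 2846. Gonadal Tyms stood at log2 2.88 (adjusted p = 0.0800), and at 4.20 (adjusted p = 0.0320) without blood mouse 2807. Gins2, a subunit of the helicase activator, and Tk1, the thymidine salvage kinase, ranged over 1.87 to 7.12 and 0.681 to 6.44 CPM across all libraries, with log2 values between -0.04 and 0.31 (adjusted p 0.677 to 0.979). On coding transcripts alone, however, Gins2 was at log2 4.71 (SE 2.05, adjusted p = 0.113) and 4.09 (SE 2.001, adjusted p = 0.160). Its coding transcript held 2.93% of its pooled reads in blood, 68.6% in gonadal and 50.7% in subcutaneous fat, with shares from 0% to 100% between the libraries of a depot, and the rest fell on a retained-intron transcript. Gins2 overlaps Gse1 and Gm20388 and Tk1 overlaps Afmid, so their reads are uncertain.

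The G1 and S phase genes split within the D cyclins: Ccnd1 was higher and Ccnd3 lower in both depots. Of the 8 tested genes of this class, 1 rose and 1 fell in each contrast, and the kinases Cdk2, Cdk4 and Cdk6 did not pass the test. Ccnd1 (cyclin D1) stood at 4.04, 0.705, 0.262 and 0.546 CPM in blood, 8.82, 9.73, 17.9 and 2.44 CPM in gonadal fat and 11.7, 7.92, 21.9 and 2.13 CPM in subcutaneous fat. Both fat libraries of mouse 2668 lay below blood mouse 2807, so the groups overlapped. The log2 fold change was 2.82 (SE 0.916, adjusted p = 0.0386) and 2.98 (SE 0.924, adjusted p = 0.0325). In gonadal fat the call was lost without blood mouse 2771, 2683 or 2668, gonadal mouse 2846, 2807 or 2683, or subcutaneous mouse 2807 (adjusted p 0.0503 to 0.105), and with no filter on low counts (0.0873). In subcutaneous fat it was lost without blood mouse 2771, 2683 or 2668 or subcutaneous mouse 2846 or 2771 (0.0520 to 0.0908), with the mouse as a block (0.0503) and with no filter (0.0735). Without blood mouse 2807 the log2 values were 4.20 and 4.37, and without subcutaneous mouse 2771 the subcutaneous value was 2.34.

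Ccnd3 (cyclin D3), the highest of the D cyclins per length in blood at 52.7 TPM (range 26.4 to 68.4), stood at 144, 252, 180.5 and 284 CPM in blood, 118, 69.8, 33.7 and 124 CPM in gonadal fat and 126, 68.9, 69.1 and 121 CPM in subcutaneous fat. Every fat library lay below every blood library, and Ccnd3 fell by 1.32 on the log2 scale in gonadal fat (SE 0.383, adjusted p = 0.0241) and by 1.16 in subcutaneous fat (SE 0.382, adjusted p = 0.0408). The gonadal call was lost without blood mouse 2771 or 2668 or gonadal mouse 2807 (adjusted p 0.0631 to 0.0664) and with no filter (0.0629). The subcutaneous call was lost without blood mouse 2771, 2683 or 2668 or any subcutaneous library (0.0502 to 0.101), with no filter (0.0886) and with relative log expression scaling (0.0526). Bysl overlaps Ccnd3 on the opposite strand.

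The transcripts of Ccnd3 did not all follow the sum. Ccnd3-216, annotated as a retained intron, stood at 71.2, 144, 80.6 and 167 CPM in blood, 42.3, 8.93, 5.42 and 12.5 CPM in gonadal fat and 56.0, 13.4, 21.6 and 14.9 CPM in subcutaneous fat. The main coding transcript, Ccnd3-205, stood at 51.6, 46.7, 42.5 and 24.4 CPM in blood, 59.3, 30.2, 23.8 and 90.7 CPM in gonadal fat and 55.7, 36.3, 32.1 and 78.6 CPM in subcutaneous fat, with the groups overlapping. The 15 other coding transcripts together averaged 28 CPM in blood, 8.81 CPM in gonadal and 10.97 CPM in subcutaneous fat, and 4 transcripts of other types 29.97, 9.25 and 8.12 CPM. Coding transcripts took 26.9% to 40.6% of the gene's reads in blood, 52.1% to 81.0% in gonadal fat and 54.2% to 78.9% in subcutaneous fat. Neither fat group overlapped blood (exact two-sided permutation p = 0.0286 for each, the smallest this design can give, 0.257 adjusted over the 36 tests). On coding transcripts alone, a setting chosen after the data were seen, the log2 fold change of Ccnd3 was -0.21 (SE 0.391, adjusted p = 0.740) in gonadal and -0.09 (SE 0.392, adjusted p = 0.894) in subcutaneous fat, and the call was lost. These shares depend on how Salmon divides reads among transcripts that share exons.

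**Figure D4:**
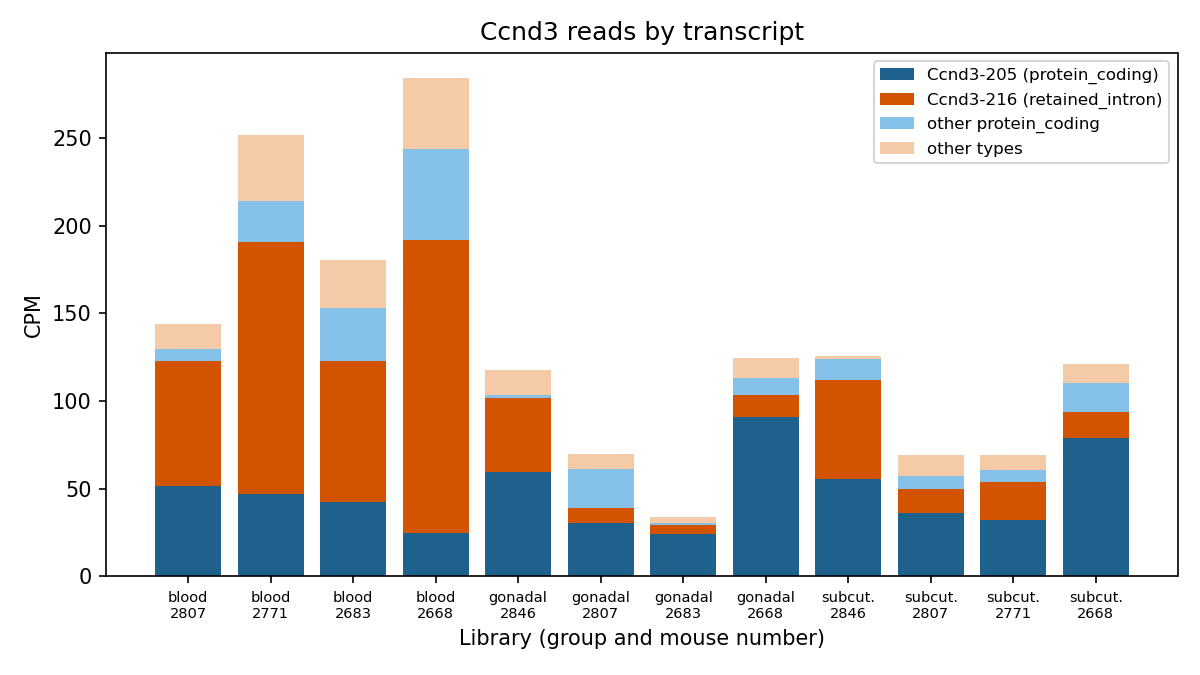
Reads of Ccnd3 in each library as stacked CPM, split into the coding transcript Ccnd3-205, the retained-intron transcript Ccnd3-216, 15 other coding transcripts and 4 transcripts of other types. The retained-intron part reaches 71.2 to 167 CPM in blood and 5.42 to 56.0 CPM in fat, while the part of Ccnd3-205 overlaps between the groups.

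The other genes of this class gave no call. Ccnd2 (cyclin D2) ranged over 3.62 to 24.7 CPM in blood, 6.76 to 20.02 CPM in gonadal fat and 8.02 to 74.0 CPM in subcutaneous fat (log2 0.27, adjusted p = 0.802, and 1.54, adjusted p = 0.111). E2f1, an activating E2F factor, stood at 4.71 to 11.1 CPM in all libraries except the subcutaneous one of mouse 2846, which had 71.9 CPM (log2 0.44, adjusted p = 0.680, and 1.80, adjusted p = 0.0821). Subcutaneous Ccnd2 passed the threshold without blood mouse 2807 (2.23, adjusted p = 0.0310) or subcutaneous mouse 2668 (1.89, adjusted p = 0.0438), and E2f1 without the latter (2.15, adjusted p = 0.0336). Without subcutaneous mouse 2846, Ccnd2 was at 0.83 (adjusted p = 0.349) and E2f1 at 0.25 (adjusted p = 0.646), so the E2f1 value rests on that library. Subcutaneous Ccnd2 also passed the threshold with the length offset (2.20, adjusted p = 0.0384). The fitted values for Cdk2 were 0.36 (adjusted p = 0.111) and 0.28 (0.212), for Cdk4 0.57 (0.258) and 0.07 (0.910), and for Cdk6 -0.07 (0.795) and -0.38 (0.119). Without subcutaneous mouse 2771, Cdk6 there was at -0.55 (adjusted p = 0.0404). Cdk6 was the most abundant of these kinases per length, at 11 TPM in blood (range 4.60 to 17.1), beside 3.08 TPM for Cdk2 (2.05 to 3.69) and 2.99 TPM for Cdk4 (1.97 to 5.30), so Cdk2 and Cdk4 did not differ beyond their spread. The E cyclins were close to the limit of counting: Ccne1 reached at most 1.09 CPM and Ccne2 at most 1.10 CPM in any library, both in blood. Cdk2 overlaps Pmel, Cdk4 overlaps Tspan31 and Ccne2 overlaps Ints8, each on the opposite strand.

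The 2 kinase inhibitors moved in opposite directions, and both calls held with any single library left out. Cdkn1a (p21) stood at 2.61, 2.82, 4.19 and 7.19 CPM in blood, 189, 205.5, 118 and 363 CPM in gonadal fat and 134, 246, 171 and 356 CPM in subcutaneous fat. Even the lowest fat library was far above the highest blood library. The fold change was 51.9 in gonadal fat (log2 5.70, SE 0.499, adjusted p = 1.82e-05) and 53.8 in subcutaneous fat (log2 5.75, SE 0.4998, adjusted p = 1.63e-05). Cdkn1b (p27) stood at 313, 389.6, 367 and 377 CPM in blood, 217, 231, 138 and 254 CPM in gonadal fat and 169.5, 267, 166 and 213 CPM in subcutaneous fat. Again no fat library overlapped blood, and Cdkn1b fell by 0.79 on the log2 scale in gonadal fat (SE 0.208, adjusted p = 0.0151) and by 0.83 in subcutaneous fat (SE 0.208, adjusted p = 0.0122).

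Per length, the order of the 2 inhibitors turned over. Cdkn1b was at 39.1 TPM in blood (range 25.02 to 46.0) where Cdkn1a was at 0.743 TPM (0.439 to 1.40), and their ratio Cdkn1a to Cdkn1b was 0.0125 to 0.0308. In gonadal fat the ratio was 1.68 to 2.89 and in subcutaneous fat 1.88 to 3.23, above 1 in all 8 fat libraries. In CPM, the highest level of Cdkn1a in each depot came from mouse 2668 (363 and 356 CPM). Per length, subcutaneous mice 2807 and 2668 were alike at 63.7 and 63.5 TPM.

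Mitotic genes other than Mki67 and Top2a were low in all 3 groups. Of 9 tested, Mki67, Top2a and Cdk1 were higher in gonadal fat, Mki67 alone in subcutaneous fat, and none was lower. In gonadal fat 3 of 9 mitotic, 3 of 8 licensing and 2 of 6 synthesis members were thus higher. The median log2 values over the tested members of these classes were 2.55, 1.54 and 1.84. In subcutaneous fat 1 of 9, 2 of 8 and 3 of 6 were higher, with medians of 1.12, 0.94 and 1.25. Mki67, the proliferation marker Ki-67, stood at 5.88, 10.9, 3.61 and 3.97 CPM in blood, 42.1, 28.6, 68.3 and 13.4 CPM in gonadal fat and 16.5, 17.8, 58.4 and 5.89 CPM in subcutaneous fat. The gonadal libraries were all above blood, while subcutaneous mouse 2668 was not. The log2 fold change was 2.64 (SE 0.695, adjusted p = 0.0165) in gonadal and 2.02 (SE 0.683, adjusted p = 0.0470) in subcutaneous fat. The gonadal call was lost without blood mouse 2683 or 2668 (adjusted p 0.0526 and 0.0504) and with no filter on low counts (0.0548). The subcutaneous call was lost without any of 8 libraries, namely the blood ones of mice 2807, 2683 and 2668, the gonadal ones of mice 2846 and 2807 and the subcutaneous ones of mice 2846, 2807 and 2771 (0.0559 to 0.185). It was also lost with no filter (0.123) and with only the 2 groups in the fit (0.0559). Without both blood mouse 2807 and subcutaneous mouse 2846 it was lost too (0.0985). The subcutaneous log2 value of Mki67 was 1.10 without subcutaneous mouse 2771.

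Top2a, a topoisomerase that untangles replicated DNA, stood at 1.78, 3.85, 2.25 and 0.744 CPM in blood, 15.3, 13.5, 14.8 and 3.72 CPM in gonadal fat and 1.20, 2.46, 12.02 and 2.65 CPM in subcutaneous fat. The other 3 gonadal libraries were far above blood, and that of mouse 2668 lay within its range. The gonadal log2 fold change was 2.45 (SE 0.722, adjusted p = 0.0247), and the subcutaneous one 1.12 (adjusted p = 0.254), which was -0.0085 without subcutaneous mouse 2771. The gonadal call was lost without blood mouse 2807, 2683 or 2668 or gonadal mouse 2846, 2807 or 2683 (adjusted p 0.0529 to 0.0688) and with the length offset (0.152). DESeq2 gave gonadal Top2a a log2 value of 2.44 but no adjusted p, so it was not among the calls of DESeq2. Cdk1, the kinase that starts mitosis, was counted 0, 5, 0 and 2 times in blood, 38, 20, 32 and 6 times in gonadal fat and 0, 7, 29 and 4 times in subcutaneous fat, which is at most 0.235, 2.58 and 1.80 CPM. Its gonadal call (log2 3.92, SE 1.28, adjusted p = 0.0385) was lost without blood mouse 2807, 2683 or 2668, gonadal mouse 2846, 2807 or 2683, or subcutaneous mouse 2807 (0.0517 to 0.105), with the mouse as a block (0.0502), with no filter (0.0764), with the length offset (0.203) and on coding transcripts alone (0.0519). Without blood mouse 2771 its log2 value was 5.06. In subcutaneous fat Cdk1 was at log2 2.93 (adjusted p = 0.0996), and at 1.79 without subcutaneous mouse 2771.

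The other mitotic genes reached at most 3.34 CPM in any library. Ccna2 (cyclin A2), Ccnb1 and Ccnb2 (B cyclins) peaked at 2.91, 2.85 and 3.34 CPM, Birc5 (survivin), Aurka and Aurkb (Aurora kinases) at 3.30, 1.73 and 3.26 CPM, Plk1 (polo-like kinase) at 2.995 CPM and Bub1, a spindle checkpoint kinase, at 1.18 CPM. Among the tested ones the gonadal log2 values ran from -0.11 for Plk1 to 2.77 for Birc5 (adjusted p 0.0660 to 0.939) and the subcutaneous ones from -0.56 for Plk1 to 1.31 for Ccna2 (0.461 to 0.767). Without subcutaneous mouse 2771, the subcutaneous values of Ccna2, Birc5 and Aurkb were -2.60, -0.22 and -5.31, and without subcutaneous mouse 2846 that of Plk1 was -1.63, so the direction of the first 3 rests on 1 library. The gonadal value of Plk1, close to 0, turned positive without blood mouse 2683 or gonadal mouse 2807 or 2668 (at most 0.15). Gonadal Ccnb2 passed the threshold without subcutaneous mouse 2846 (2.66, adjusted p = 0.0390). Ccna2 overlaps Exosc9 on the opposite strand. Summed over the 11 mitotic genes, the level was 10.98, 18.9, 9.17 and 7.05 CPM in blood, 74.6, 50.5, 102.8 and 20.2 CPM in gonadal fat and 21.3, 25.5, 79.5 and 10.3 CPM in subcutaneous fat. Mouse 2668 had the lowest sum in each of the 3 groups. Over the 8 licensing genes the sums were 58.0, 47.2, 38.5 and 37.4 CPM in blood, 121.7, 93.1, 110.3 and 89.6 CPM in gonadal fat and 54.5, 79.1, 107.8 and 82.9 CPM in subcutaneous fat. Both fat libraries of mouse 2668 held licensing sums above all blood libraries, while their mitotic sums lay just above and within the blood range.

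**Figure D5:**
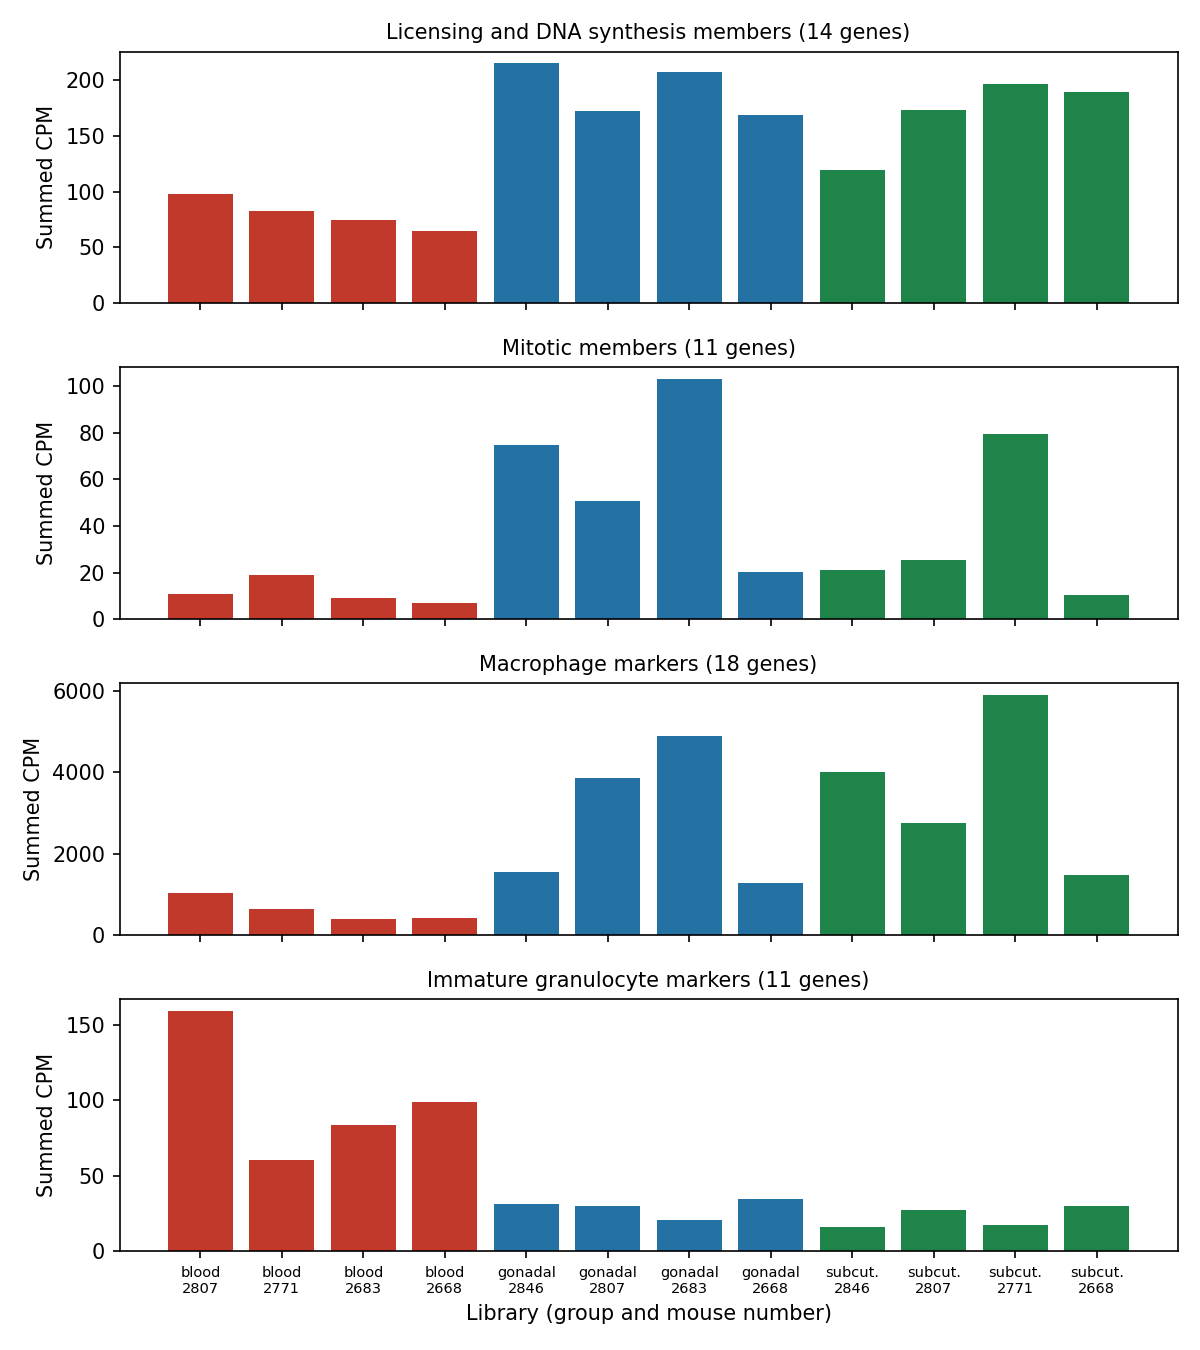
Summed CPM per library of the 14 licensing and DNA synthesis members, the 11 mitotic members, 18 macrophage markers and 11 immature granulocyte markers, with bars from 0. The licensing and synthesis sums of all fat libraries exceed those of blood, and immature granulocyte sums are highest in blood. The mitotic sums are highest in gonadal mouse 2683 (102.8 CPM) and subcutaneous mouse 2771 (79.5 CPM), which also hold the highest macrophage sums of their depots. The order differs elsewhere: gonadal mouse 2846 has a mitotic sum of 74.6 and a macrophage sum of 1546 CPM, gonadal mouse 2807 50.5 and 3860 CPM. A link between these sums was not tested.

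Marker genes of other cells moved with the tissue as well. Of 18 macrophage markers, 8 were higher and 1 lower in gonadal fat and 9 higher in subcutaneous fat. Their summed level was 407.5 to 1046 CPM in blood, 1286 to 4886 CPM in gonadal fat and 1482 to 5893 CPM in subcutaneous fat. Apoe and Csf1r were the most abundant over the 12 libraries. They averaged 130 and 347.5 CPM in blood, 1112 and 546 CPM in gonadal and 1373 and 536 CPM in subcutaneous fat. No macrophage marker was at 0 throughout a group. Among the 4 blood libraries the macrophage sum was highest in mouse 2807 (1046 CPM), which was also the highest of the 4 for 12 of the 36 members, Mcm2, Mcm3, Mcm4, Mcm5, Mcm6, Pcna, Tk1, Cdk4, Ccnd1, Ccnd2, Tyms and Aurkb. The other 24 were highest elsewhere, 11 in blood mouse 2771 (with Mki67, Top2a and Cdk1), 8 in mouse 2668 (with Rrm1 and Cdkn1a) and 5 in mouse 2683. In gonadal fat, mouse 2807 had the second highest macrophage sum (3860 CPM) and the lowest Mcm2. In bulk RNA of this kind, more cells of a type and more RNA per cell cannot be told apart, and the part of other cells in the differences of Mcm2, Mcm3, Rrm1, Mki67 and the other members was not tested. For immature granulocytes, which still divide in the marrow, the sum of 11 markers was 60.4 to 159.1 CPM in blood, 20.8 to 34.7 CPM in gonadal fat and 16.2 to 30.2 CPM in subcutaneous fat. Cebpe and Chil3 led that list, with 64.0 and 23.6 CPM on average in blood (ranges 49.0 to 82.1 and 0.0496 to 87.2 CPM). Only 4 of the 11 had enough reads to be tested, and 2 of these were lower in each depot. Mpo, Ctsg, Ms4a3 and Fcnb were at 0 in all blood libraries, 7 of the 11 genes at 0 in all gonadal libraries, and Elane, Ms4a3 and Camp at 0 in all subcutaneous ones. Neutrophil markers summed to 3106 to 4645 CPM in blood against 387 to 814 and 427 to 1313 CPM in the 2 depots, with Retnlg and Mmp9 on top (2582 and 574 CPM in blood). T cell markers summed to 25.7 to 77.2 CPM in blood, 14.7 to 48.1 CPM in gonadal fat and 73.6 to 368 CPM in subcutaneous fat, with Cd4 at 49.9 CPM on average in subcutaneous fat. B cell markers gave 361 to 839, 196 to 529 and 342 to 527 CPM, led by Bank1 and Ighm (256 and 144 CPM in blood). Of 11 monocyte markers, which summed to 1490 to 3338, 1409 to 7112 and 813 to 1867 CPM, 2 were higher and 2 lower in gonadal fat and 1 each way in subcutaneous fat. Their median log2 values were 0.03 and -0.86. Much of the gonadal sum was Fn1, at 52.8 to 1576 CPM in blood, 626 to 6195 CPM in gonadal and 53.3 to 655 CPM in subcutaneous fat. Erythroid markers reached 8371 CPM in blood mouse 2771. Fibroblast markers gave 366 to 476 CPM in blood, 408 to 1000 CPM in gonadal fat and 589 to 5966 CPM in subcutaneous fat, led by Gsn and Col3a1, with the highest sum in subcutaneous mouse 2846. Of 16 tested, 12 were higher in gonadal and 10 in subcutaneous fat, and 0 were lower (median log2 5.04 and 6.87). Gsn averaged 247.5 CPM in blood, 344 CPM in gonadal and 600 CPM in subcutaneous fat, and Col3a1 1.42, 129 and 523 CPM.

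No member differed between gonadal and subcutaneous eosinophils at the threshold. None of the 33 tested members passed the threshold with edgeR, none had an unadjusted p under 0.05, DESeq2 called 0, and the libraries of the 2 depots overlapped for each of the 33 (among all genes 1.94% did not overlap and were higher in gonadal fat, and 1.69% lower). Over all genes 0.00651% were called (1 gene, Lef1, a transcription factor on the T cell marker list, lower in gonadal fat and named here after its value was seen) and 1234 of 15367 (8.03%) had an unadjusted p under 0.05. The fitted differences, gonadal over subcutaneous, ran from -1.35 for E2f1 (SE 0.708) to 2.01 for Birc5 (SE 1.48), and without subcutaneous mouse 2846 that of E2f1 was 0.20, with a median of 0.19 beside -0.01 over all genes. The estimates were small for Cdkn1a (-0.05, SE 0.403), Cdkn1b (0.04, SE 0.207), Mcm2 (0.19, SE 0.372) and Rrm1 (-0.28, SE 0.287). With single libraries left out, that of Cdkn1a ran from -0.41 to 0.26, so equal levels in the depots were not shown. SEs were smaller for Cdk2 (0.159) and Cdk6 (0.173) and larger for the mitotic genes. All 9 tested mitotic genes had positive values (median 1.24), though that of Aurka (0.04) was negative without gonadal mouse 2683 or subcutaneous mouse 2846 or 2771. At this spread a difference of the size seen in the mitotic genes was not detectable.

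Other genes of the same pathways, taken from lists that do not contain the members, are given by list, each beside the 15.4% of all tested genes that were higher in either depot and the 11.6% (gonadal) and 11.4% (subcutaneous) that were lower. Among 45 tested genes of DNA replication and nucleotide supply, 14 (31.1%) were higher and 2 (4.44%) lower in gonadal fat (median log2 0.91), and 10 (22.2%) higher and 4 (8.89%) lower in subcutaneous fat (median 0.89). In gonadal fat the largest increases were Gins1, a helicase activator subunit (log2 4.83), Uhrf1, which maintains DNA methylation (4.03), and Prim1, the primase (3.78). The decreases were Dck, the deoxycytidine kinase (-1.39), and Mcmbp, which binds MCM proteins (-0.65). In subcutaneous fat Rfc3, a clamp loader subunit (3.03), Dbf4, the activator of an origin-firing kinase (2.53), and Pola1, a DNA polymerase subunit (2.32), led the increases. The decreases there were Gmnn, the inhibitor of Cdt1 (-1.45), Dck (-1.14) and Samhd1, which degrades deoxyribonucleotides (-0.82). Gins1 had 3 reads over the 4 blood libraries and 104 over the gonadal ones, a ratio of 38.1 per scaled library size with an exact 95% counting interval of 12.7 to 187.6.

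Among 31 tested other G1 and S phase regulators, 8 (25.8%) were higher and 6 (19.4%) lower in gonadal fat (median log2 0.29), and 7 (22.6%) higher and 6 (19.4%) lower in subcutaneous fat (0.02). Btg2, an antiproliferative gene, rose from 371 CPM (SD 37.5) in blood to 2067 CPM (SD 581) in gonadal and 2723 CPM (SD 1137) in subcutaneous fat, by log2 2.48 (SE 0.318, adjusted p = 0.000199) and 2.88 (SE 0.323, adjusted p = 7.56e-05). Skp2, which targets Cdkn1b for degradation, was higher by 2.35 and 2.42, and Mnat1, a subunit of the CDK-activating kinase, by 1.66 in gonadal fat, Btg3 by 1.76 in subcutaneous fat. E2f2, an E2F factor, fell from 35.8 CPM (SD 13.3) to 3.30 CPM (SD 1.40) and 5.89 CPM (SD 3.84), with log2 values of -3.44 (SE 0.535, adjusted p = 0.000776) and -2.64 (SE 0.523, adjusted p = 0.00353). Tob1, another antiproliferative gene (-1.12), and Max, the partner of Myc (-1.10), were lower in gonadal fat, and E2f3 (-1.94) and Myc (-1.38) in subcutaneous fat.

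Of 45 tested other mitotic genes, 12 (26.7%) were higher and 2 (4.44%) lower in gonadal fat (median log2 1.31) and 9 (20.0%) higher and 3 (6.67%) lower in subcutaneous fat (0.47). The chromosome motors Kif4 (log2 5.03 in both) and Cenpe (4.04 and 3.504) and, in gonadal fat, Kif22 (3.30) or, in subcutaneous fat, Kif18a (2.51) led the increases. Kif4 had 3 reads in blood, all in mouse 2771, beside 105 and 58 reads in the depots, which gives ratios of 38.4 (exact 95% counting interval 12.8 to 189.3) and 32.8 (10.7 to 163.4), and its log2 value was 7.52 in both contrasts without that blood library. Kif23, a cytokinesis motor, fell from 87.7 CPM (SD 12.1) to 18.2 CPM (SD 5.96) and 34.2 CPM (SD 14.1), by 2.27 and 1.37 on the log2 scale, and Pttg1, securin, by 1.80 and 1.82. Cdca8, of the chromosomal passenger complex, was lower in subcutaneous fat (-1.58).

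Cdkn1a is a p53 target, and 19 tested other p53 targets went both ways: 4 (21.1%) higher and 5 (26.3%) lower in gonadal fat (median log2 0.04), 4 (21.1%) higher and 3 (15.8%) lower in subcutaneous fat (0.06). Gdf15, a stress-induced secreted factor, was counted once in blood and 669 and 177 times in the depots, ratios of 734.5 and 299.8 with exact 95% counting intervals of 131.4 to 29050 and 53.1 to 11910. The polo-like kinase gene Plk3 rose from 2.57 CPM (SD 1.18) to 57.1 CPM (SD 22.4) and 42.3 CPM (SD 9.09), by log2 4.47 (SE 0.370, adjusted p = 9.17e-06) and 4.04 (SE 0.363, adjusted p = 1.47e-05), and Plk2 by 2.60 and 2.50. In contrast, Trp53inp1 (log2 -1.83 and -1.42) and Bbc3, which encodes the apoptosis inducer PUMA (-1.22 and -1.27), were lower in both depots, Fas, a death receptor, in gonadal fat (-1.28) and Sesn2 in subcutaneous fat (-1.06). Between the depots no gene of these 4 lists was called.

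Of the 46 values named from these lists, 32 kept their call with each library left out in turn. The other 14 lost it at least once: gonadal Uhrf1, Prim1, Skp2, Kif22 and Fas, and subcutaneous Gmnn, Samhd1, Skp2, Btg3, E2f3, Myc, Kif18a, Cdca8 and Sesn2, the last only without blood mouse 2771 (adjusted p = 0.0515). On coding transcripts alone, Trp53inp1 missed the threshold in both contrasts (adjusted p = 0.586 and 0.798), as did gonadal Skp2, Mnat1 and Kif22 (0.0643, 0.224 and 0.0966) and subcutaneous Skp2, Dbf4, Kif18a, Cdca8 and Kif23 (0.0678, 0.0896, 0.176, 0.382 and 0.0642). With the length offset, gonadal Uhrf1, Prim1, Skp2, Max and Kif22 (0.0589, 0.140, 0.133, 0.0696 and 0.222) and subcutaneous Gmnn, Samhd1, Skp2, E2f3, Kif18a and Cdca8 (0.275, 0.0587, 0.0874, 0.121, 0.0683 and 0.0760) missed it. Without blood mouse 2668, Gdf15 was at log2 9.93 and 9.60 and gonadal Gins1 at 5.64, without blood mouse 2807 subcutaneous Pola1 at 2.94, gonadal Prim1 at 4.99 and Skp2 at 3.01 and 3.08. With the mouse as a block, gonadal Prim1, Mnat1 and Kif22 (adjusted p = 0.132, 0.0708 and 0.134) and subcutaneous Gmnn, Samhd1, Skp2, Btg3, E2f3, Myc and Kif18a (0.0545, 0.0634, 0.132, 0.170, 0.0736, 0.0555 and 0.145) missed the threshold. The counts of called genes per list moved too: the replication list in gonadal fat had 8 higher without blood mouse 2683 and 9 without gonadal mouse 2683, and the other mitotic list had 7 higher without that gonadal library.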

How the data were processed

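Total RNA of sorted eosinophils was sequenced with the SMARTer Stranded pico kit v2, per the labels' protocols. Trim Galore 0.6.4, Salmon 1.6.0, DESeq2 1.30.1 and build mm10 are named in the submitters' processing notes. The deposited table of a library lists 140992 transcripts with the authors' estimated counts, TPM and effective length, per the file headers. As to the annotation release and the strand setting, they are not given in the sources used here, and reads of a gene and its antisense partner cannot be told apart. Besides the overlaps named in the results, called members overlap other genes too. Rrm1 (Gm45399) and Top2a (Gm23451) do so on their own strand. Cdkn1a (AC167363.2), Ccnd1 (LTO1), Mki67 (Gm45240) and Top2a (Gm26394) do so on the opposite strand.

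Estimated counts were summed per gene with GENCODE M21 (GRCm38), ignoring version numbers, and rounded. There were 1201 transcripts without a match, holding 0.351% to 0.538% of reads, and they were left out. Summed TPM served only to set genes side by side, and effective lengths only as an alternative offset. One edgeR 4.0.16 fit (R 4.3.3, quasi-likelihood, robust, TMM, filterByExpr) over all 12 libraries, with the group as its single term, tested 15367 genes, and p-values were Benjamini-Hochberg adjusted across them (threshold 0.05). The SE is the log2 fold change over the square root of the F statistic. A log2 fold change of the fit depends on its small prior count where a group has few reads. CPM use TMM-scaled library sizes, ± and SD are over 4 libraries, and counting intervals cover counting error only, since no molecular identifiers are named. The self-made scripts were tested on simulated data.

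Libraries of different groups share mice, per the labels, so mouse numbers pair samples. Deviations from group means correlated by -0.111 to 0.358 (mean 0.0842) over 9 same-mouse pairs and by -0.282 to 0.286 (mean -0.0188) over 39 other pairs. Alternatives were the mouse as a block, DESeq2 1.42.0, relative log expression scaling, no filter, a length offset, only the groups compared and each library left out. Fits on coding transcripts alone, and without subcutaneous mouse 2846 and blood mouse 2807, were added after the data were seen.

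The members, 4 pathway lists and the marker lists were chosen with earlier results of these data known. All members are named, with values per library where called in any contrast. From each pathway list come the 3 called genes with the largest fold change in each direction that averaged 1 CPM or more where they were higher, and from marker lists the most abundant genes, of which some are not reported here. Genes and samples that are outside these groups were not analysed here.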

Additional observations from a re-analysis of the deposited data

Results flagged for a closer look

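In 78 groups of 4 libraries, 6 members had a library set apart from the other 3 by Dixon's test at the 95% level on log2 CPM, where chance alone flags about 1 in 20 groups. Mcm5 was at 0 CPM in the subcutaneous library of mouse 2846 and at 6.32 to 8.98 CPM in the other 3, and Cdt1 was at 6.89 CPM there and at 3.53 to 3.88 CPM in the others. Gins2 stood at 1.87 CPM in the gonadal library of mouse 2807 beside 5.67 to 6.60 CPM. Rrm1 was at 3.82 CPM in the blood library of mouse 2683 beside 4.98 to 5.21 CPM. Cdk2 was at 25.9 CPM in the gonadal library of mouse 2683 beside 30.3 to 31.2 CPM. Top2a was at 3.72 CPM in the gonadal library of mouse 2668 beside 13.5 to 15.3 CPM.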

How the results depend on the processing

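No called member reversed its direction under any setting run. Among the alternatives other than leaving out single libraries, the members lower in gonadal fat numbered 1 without a filter on low counts and 1 on coding transcripts alone, instead of 2. Those lower in subcutaneous fat numbered 1 with relative log expression scaling, 1 without the filter and 1 on coding transcripts alone, instead of 2. On coding transcripts 2689 genes were called in subcutaneous fat instead of 4121, where 11835 genes were tested. Between the depots, 152 genes were called by DESeq2. With the mouse as a replicate block, with only the 2 groups in the fit and on coding transcripts, 0 instead of 1 were called. The same held without both blood mouse 2807 and subcutaneous mouse 2846.

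With single libraries left out, gonadal fat had 4 to 14 members higher (10 with all), 1 to 2 lower (2) and 2753 to 5075 genes called (4152). Subcutaneous fat had 4 to 10 higher (8), 1 to 2 lower (2) and 2737 to 4256 genes called (4121). Between the depots 0 to 7 genes were called and 0 members. Gonadal members higher numbered 5 without blood mouse 2683, 4 without blood mouse 2668, and 6 without gonadal mouse 2846 or 2683. Subcutaneous ones numbered 5 without blood mouse 2771, and 4 without blood mouse 2683 or 2668 or subcutaneous mouse 2771. Gonadal fat had 1 lower member without blood mouse 2771 or 2668 or gonadal mouse 2807, and subcutaneous fat 1 without blood mouse 2771, 2683 or 2668 or subcutaneous mouse 2846, 2807 or 2668. All genes called fell to 2753 without blood mouse 2771 in gonadal and to 2737 without blood mouse 2683 in subcutaneous fat. The cause was not tested.

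The replicate block gave 10 higher and 2 lower in gonadal fat, 6 and 2 in subcutaneous fat, and the pairing by mouse changed no other call than those named beside the results. DESeq2 called 14 and 2, and 12 and 2. Without both blood mouse 2807 and subcutaneous mouse 2846, 13 and 2, and 10 and 2 were called. Blood mouse 2807, the highest of its group for Mcm2 to Mcm6, was not flagged by Dixon's test. Depth limits Tyms, Rrm2, Cdk1 and the other low mitotic genes, whose values rest on a few reads per library.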
